A study of Mus musculus with 9 samples.

Results

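Transcripts of 10 genes that are abundant in neutrophils and their precursors were followed through cultures of bone marrow-derived macrophages (BMMs), as a measure of granulocyte RNA in those cultures. The genes were S100a8, S100a9, Ngp, Camp, Ltf, Lcn2, Elane, Mpo, Ly6g and Retnlg, taken by symbol from the 51826 rows of the count table. All 10 had 1 row each and passed the filter on low counts, which 15429 rows passed.

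BMMs are grown from mouse bone marrow, which also holds neutrophils and their precursors. Neutrophils fill their granules in sequence as they mature. Promyelocytes make the primary granule enzymes, among them myeloperoxidase and neutrophil elastase, and myelocytes then make the secondary granule proteins, among them lactoferrin, the cathelicidin and neutrophilic granule protein. Mature neutrophils contain large amounts of the alarmins S100a8 and S100a9, which macrophages can also make under inflammatory stimuli, as they can Lcn2.

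The series has 3 control libraries of BMMs, 3 of BMMs after 48 h in medium conditioned by K7M2 cells, a mouse osteosarcoma line (CM), and 3 after 48 h in that medium with DTM added (CM plus DTM). The labels do not spell out DTM. They give no time for the control libraries, so in comparisons with control an effect of time cannot be told apart from that of treatment. The sources used here give no strain, sex or age of the mice. Nothing in them says that replicates are separate cultures or animals, so a p-value measures only the library-to-library spread, part of which may be technical. Levels are CPM, read counts scaled to a common library size after adjustment by the trimmed mean of M-values (TMM). In bulk RNA a lower level can mean fewer cells of a type or less RNA per cell, and these cannot be told apart.

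The libraries numbered 1 stood apart from those numbered 2 and 3 in every group. Xist, the RNA made from the inactive X chromosome, had 65.0 CPM in control 1, 172 CPM in CM 1 and 78.1 CPM in CM plus DTM 1, and 0 counts in the other 6 libraries. The Y-linked genes Ddx3y, Eif2s3y, Kdm5d and Uty summed to 31.5 to 51.3 CPM in those 6 libraries, to 6.08 CPM in control 1, to 8.49 CPM in CM plus DTM 1 and to 0 in CM 1. Depth was 43084296 to 50407973 counts per library. Macrophage genes were present throughout: all 16 rows of a macrophage identity list had counts in every library, summing to 35125 to 59766 CPM in control, 43027 to 44914 CPM in CM and 40056 to 58950 CPM in CM plus DTM. Most of the sum was Lyz2, with 30435.5 CPM in CM 1. Other genes of the list, named after their values were seen, moved both ways. In CM 1, Adgre1 (453 CPM), Csf1r (1293.5 CPM) and C1qa (576 CPM) had their lowest level of all 9 libraries. Cd14 (1495 CPM) and Mertk (105 CPM) had their highest there. Because the number 1 libraries differ in this way, each comparison is given with all 9 libraries and with libraries 2 and 3 only, a choice made after the data were seen.

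The promoters of 5 members are shown because these genes differ in how they moved. Ngp and Ltf kept close to each other in every library that had counts of them. Camp was lower in each CM library than in any control or CM plus DTM library. The primary granule genes Elane and Mpo moved apart. Each is the 250 bases before the RefSeq start on GRCm38.p6, 5′ to 3′ on the gene's strand: Ngp chr9:110419558-110419807 (+), Ltf chr9:111019042-111019291 (+), Camp chr9:109849457-109849706 (-), Elane chr10:79886062-79886311 (+) and Mpo chr11:87793534-87793783 (+). Capitals mark matches on either strand to TTGCNNAA, a C/EBP motif, to GAGGAA, a PU.1 motif, or to an NF-kB motif.
Ngp: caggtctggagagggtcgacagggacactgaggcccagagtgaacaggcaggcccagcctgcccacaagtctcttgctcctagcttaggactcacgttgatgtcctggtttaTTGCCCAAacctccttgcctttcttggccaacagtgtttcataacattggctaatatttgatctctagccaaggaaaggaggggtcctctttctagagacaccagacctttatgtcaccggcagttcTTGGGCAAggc
Ltf: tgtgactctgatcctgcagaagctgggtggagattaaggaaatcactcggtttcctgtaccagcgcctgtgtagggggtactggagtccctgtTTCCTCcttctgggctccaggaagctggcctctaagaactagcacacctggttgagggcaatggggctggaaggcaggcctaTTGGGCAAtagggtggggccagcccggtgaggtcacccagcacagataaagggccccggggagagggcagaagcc
Camp: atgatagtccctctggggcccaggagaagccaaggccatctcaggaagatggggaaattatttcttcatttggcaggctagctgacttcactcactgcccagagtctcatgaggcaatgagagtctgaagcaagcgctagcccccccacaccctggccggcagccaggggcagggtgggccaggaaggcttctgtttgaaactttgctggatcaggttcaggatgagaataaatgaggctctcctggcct
Elane: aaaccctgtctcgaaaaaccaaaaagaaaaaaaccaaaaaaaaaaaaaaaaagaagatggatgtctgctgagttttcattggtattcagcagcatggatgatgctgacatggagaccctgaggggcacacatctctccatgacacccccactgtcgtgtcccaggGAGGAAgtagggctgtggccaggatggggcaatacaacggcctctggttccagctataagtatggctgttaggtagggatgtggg
Mpo: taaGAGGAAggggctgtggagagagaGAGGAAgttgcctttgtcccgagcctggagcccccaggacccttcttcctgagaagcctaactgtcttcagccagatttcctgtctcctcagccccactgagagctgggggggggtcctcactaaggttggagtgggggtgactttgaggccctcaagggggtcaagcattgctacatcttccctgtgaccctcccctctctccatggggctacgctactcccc
The Ngp promoter held the C/EBP motif at 138 and 11 bases before the start. The Ltf promoter held it at 75 bases and the PU.1 motif at 157 bases. Elane had the PU.1 motif at 85 bases and Mpo at 247 and 224 bases, and Camp had none of the 3 in this window. Ly6g has 2 RefSeq starts whose windows overlap and share their PU.1 and NF-kB matches, so members are counted by gene. The C/EBP motif was before 6 of 10 genes, against 9.56% of the 32851 mouse promoters searched. The PU.1 motif was before 6 of 10, against 23.3% of all promoters, and the NF-kB motif before 1 of 10, Ly6g, against 17.6%. Counted by promoter, as the background is, the C/EBP motif was before 6 of 11, the PU.1 motif before 7 and the NF-kB motif before 2. A match describes letters and is not a binding site.

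**Figure D1:**
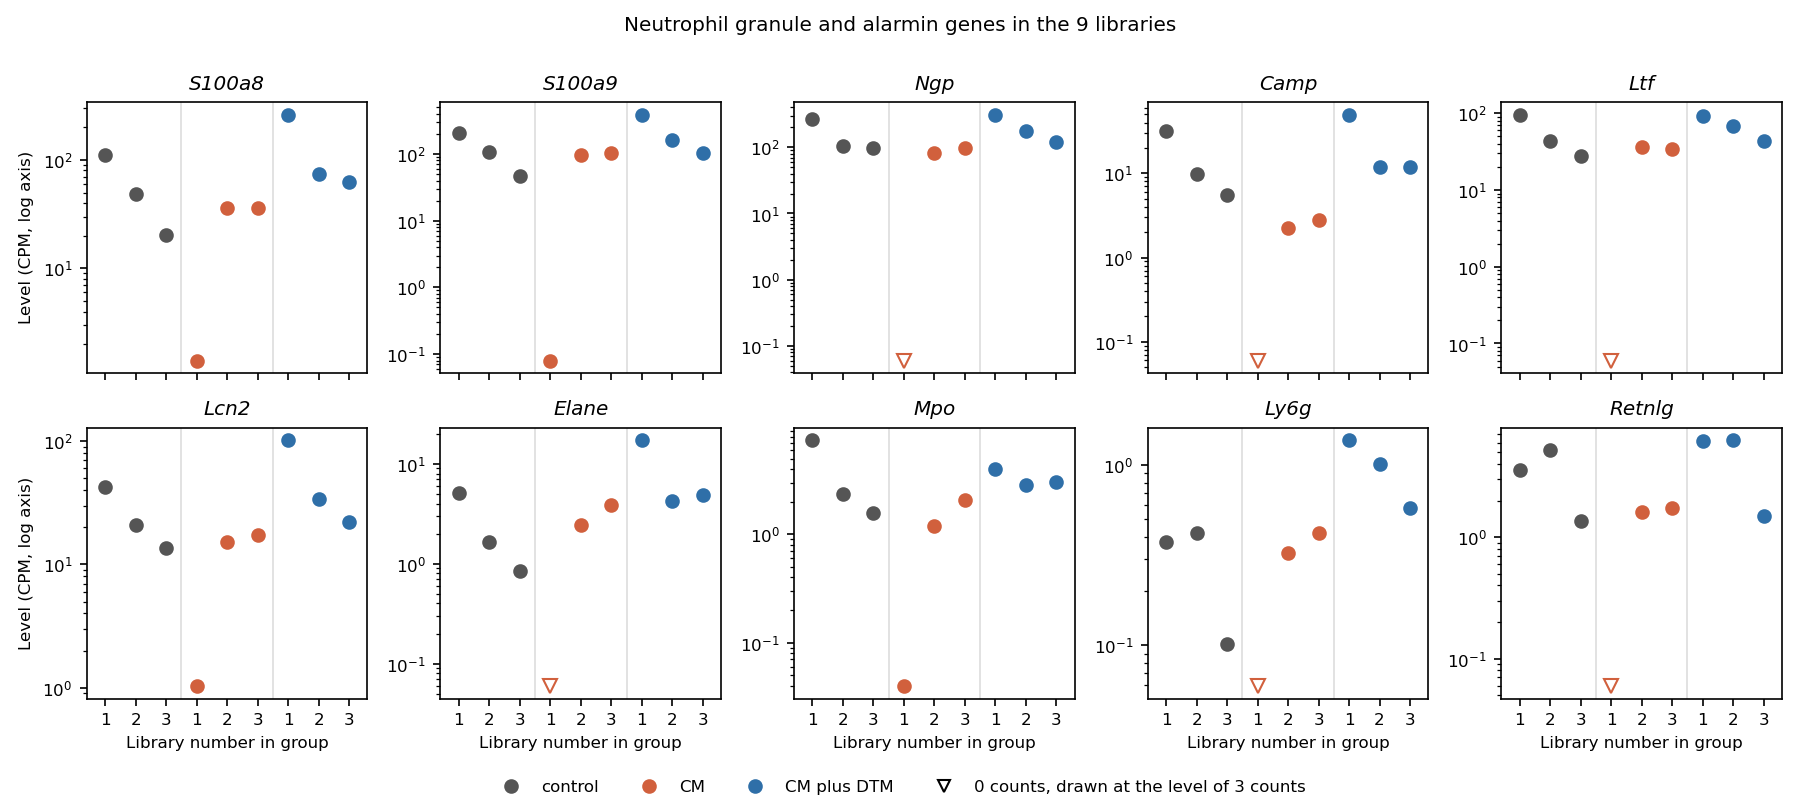
Level of each of the 10 genes in each library (CPM, log axis), with 1 point per library coloured by group and 0 counts drawn at the level of 3 counts. CM 1 holds the lowest value of all 10 genes, and Ngp there has 0 counts against 82.98 CPM or more in every other library.

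The secondary granule genes Ngp, Ltf and Camp had 0 counts in CM 1 and were present in every other library. Ngp, which encodes neutrophilic granule protein, stood at 268, 105 and 98.2 CPM in control 1, 2 and 3, at 0, 82.98 and 99.2 CPM in CM, and at 313, 176 and 121 CPM in CM plus DTM. Ltf, which encodes the iron-binding protein lactoferrin, stood at 96.3, 42.9 and 27.7 CPM in control, at 0, 36.6 and 34.1 CPM in CM, and at 91.6, 68.3 and 43.7 CPM in CM plus DTM. For both genes CM 2 and CM 3 lay within the range of the controls or, for Ngp in CM 2, below it, and CM 1 lay apart from all 8 other libraries. CM 1 had 0 Ngp counts, and every other library had at least 3551. Against 3 counts, the floor used for a library at 0, the mean of CM 2 and CM 3 was at least 1536-fold higher for Ngp and at least 597-fold higher for Ltf. The group means of Ngp were 157 ± 95.8 CPM in control, 60.7 ± 53.2 CPM in CM and 203 ± 98.6 CPM in CM plus DTM (SD, n = 3 each), so the SD was close to the mean in CM.

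Camp, which encodes the antimicrobial cathelicidin, differed from Ngp and Ltf in CM. It stood at 31.8, 9.84 and 5.46 CPM in control, at 0, 2.27 and 2.79 CPM in CM, and at 49.9, 12.02 and 11.97 CPM in CM plus DTM. All 3 CM libraries lay below all 3 controls and below all 3 CM plus DTM libraries. The group means were 15.7 ± 14.1, 1.68 ± 1.48 and 24.6 ± 21.9 CPM (SD, n = 3 each). Lcn2, which encodes the siderophore-binding lipocalin of secondary granules, stood at 42.6, 20.8 and 13.7 CPM in control, at 1.03, 15.3 and 17.4 CPM in CM, and at 102, 34.1 and 22.0 CPM in CM plus DTM. Lcn2 was thus low but present in CM 1, with 52 counts, 15.9-fold below the mean of CM 2 and CM 3.

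The alarmins S100a8 and S100a9 encode the subunits of calprotectin, a calcium-binding and metal-binding protein. S100a8 stood at 109.9, 48.2 and 20.4 CPM in control, at 1.40, 36.2 and 36.0 CPM in CM, and at 262, 74.2 and 62.9 CPM in CM plus DTM. S100a9 stood at 208, 107 and 46.5 CPM in control, at 0.0790, 95.8 and 105 CPM in CM, and at 391, 163 and 104 CPM in CM plus DTM. CM 2 and CM 3 lay within the control range for both, and CM 1 lay below it. The 2 genes were not equally low in CM 1, which had 71 counts of S100a8 and 4 of S100a9. S100a8 made 94.7% of their summed counts there (exact Clopper-Pearson 95% interval 86.9 to 98.5%) and 25.5 to 40.1% in the other 8 libraries.

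The primary granule genes were expressed at a lower level. Elane, which encodes the serine protease neutrophil elastase, stood at 5.10, 1.65 and 0.855 CPM in control, at 0, 2.45 and 3.85 CPM in CM, and at 17.4, 4.25 and 4.90 CPM in CM plus DTM. Mpo, which encodes the peroxidase that makes hypochlorous acid, stood at 7.47, 2.38 and 1.59 CPM in control, at 0.0395, 1.19 and 2.06 CPM in CM, and at 4.06, 2.83 and 3.05 CPM in CM plus DTM. Libraries 2 and 3 had more Elane in both treated groups than in control, while Mpo in those libraries overlapped between control and CM. CM 1 had 0 Elane and 2 Mpo counts.

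Ly6g and Retnlg mark later neutrophils. Ly6g, which encodes the surface protein used to sort mouse neutrophils, stood at 0.375, 0.420 and 0.102 CPM in control, at 0, 0.327 and 0.420 CPM in CM, and at 1.38, 1.01 and 0.580 CPM in CM plus DTM. These levels are 0 to 51 counts per library, which limits their precision. Retnlg, which encodes a secreted resistin-like protein, stood at 3.54, 5.18 and 1.36 CPM in control, at 0, 1.61 and 1.75 CPM in CM, and at 6.17, 6.32 and 1.504 CPM in CM plus DTM. All 3 CM plus DTM libraries lay above the other 6 for Ly6g, whereas Retnlg overlapped between all groups.

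Compared per kilobase of the longest annotated transcript, S100a9 was the highest member in control, with a mean of 232 CPM per kb, followed by Ngp with 128 and S100a8 with 119.5 CPM per kb. Camp, Ltf and Lcn2 formed a second tier at 20.7, 20.3 and 18.7 CPM per kb. Retnlg had 5.67, Elane 2.57, Mpo 1.39 and Ly6g 0.318 CPM per kb. Within each tier the means differed by less than the SD of the higher gene over the 3 controls. Members varied more between libraries of a group than other genes did: their median SD of log2 CPM was 1.03 in control, 3.25 in CM and 1.04 in CM plus DTM, against 0.24, 0.31 and 0.40 over all genes tested.

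Summed, the 10 genes took 0.0798, 0.0396 and 0.0246% of all counts in control 1, 2 and 3, and 0.000256, 0.0262 and 0.0286% in CM 1, 2 and 3. The CM plus DTM libraries had 0.103, 0.0539 and 0.0369%. The members were thus a small part of every library, and the whole set had 129 counts in CM 1 against 10602 to 45762 in the others. CM 1 was the lowest library for all 10 genes, with 6 of them at 0. CM plus DTM 1 was the highest for 7 genes, control 1 for 2 and CM plus DTM 2 for 1. Control 1 exceeded the mean of control 2 and 3 by 1.08-fold (Retnlg) to 4.16-fold (Camp), and CM plus DTM 1 exceeded the mean of its group's libraries 2 and 3 by 1.38-fold (Mpo) to 4.16-fold (Camp). The part of Xist and the Y-linked genes, which set the number 1 libraries apart, in these member levels was not tested.

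**Figure D2:**
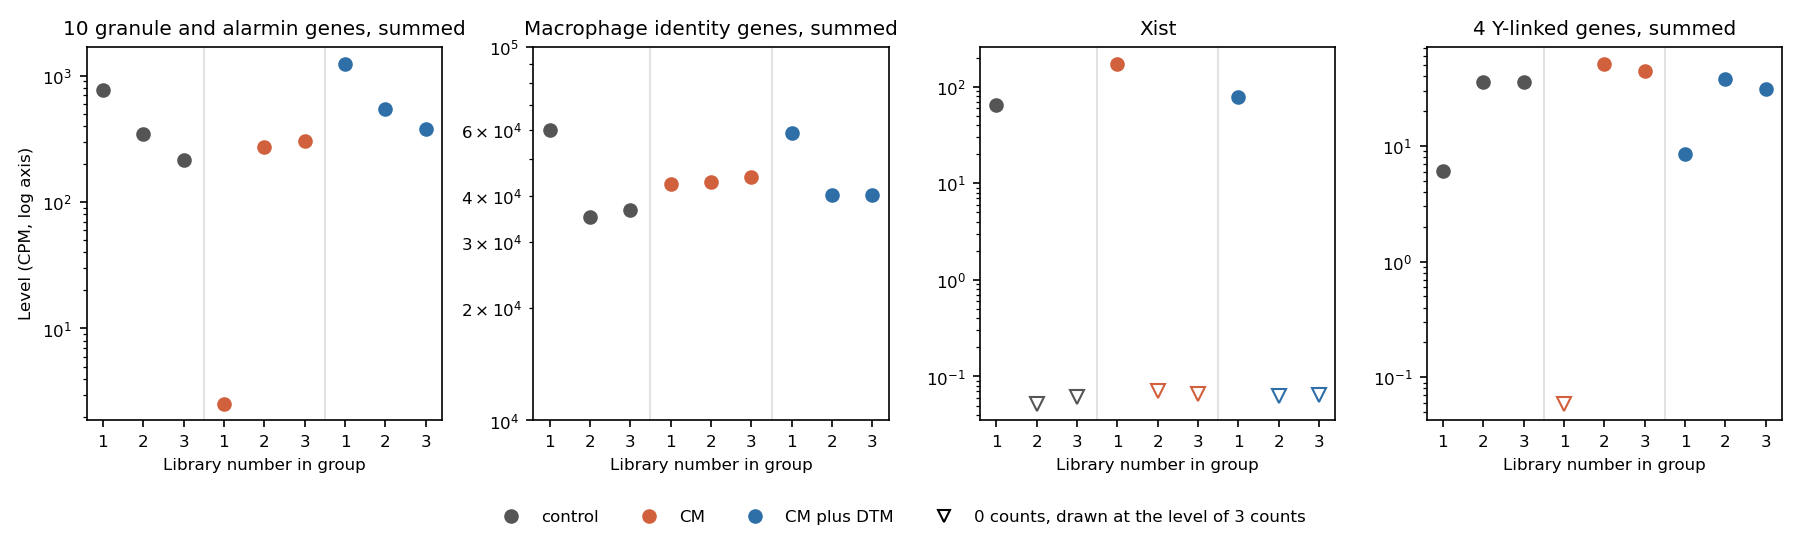
Summed level of the 10 genes, Xist, the summed Y-linked genes and the summed macrophage identity genes in each library (CPM). In CM 1 the members fall to 2.55 CPM and the macrophage genes sum to 43027 CPM, of which Lyz2 makes 30435.5 CPM. Xist has counts only in the 3 libraries numbered 1.

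CM 1 lacked more than these genes. In it, 32 genes had at most 3 counts while every other library had at least 30, and 6 of these were members: Camp, Elane, Ltf, Mpo, Ngp and Retnlg. The others included Chil3, Fcnb and Itgb2l, which are neutrophil-associated, Ly6c2, a monocyte gene, the immunoglobulin genes Igha and Jchain, and the Y-linked Ddx3y, Eif2s3y and Kdm5d (named after their values were seen). CM plus DTM 1 had 30 such genes, with 0 members among them, and the other 7 libraries had 0. Over the tested genes, log2 CPM of CM plus DTM 1 correlated at 0.919 and 0.936 with libraries 2 and 3 of its group. CM 1 correlated at 0.940 and 0.939 with CM 2 and CM 3. Libraries 2 and 3 correlated with each other at 0.979 in CM plus DTM and at 0.985 in CM. Some genes of the granulocyte lists were present in CM 1: Mmp8, the neutrophil collagenase, had 355 CPM there and Slpi, an inhibitor of elastase, 38.7 CPM. In that library 5 of the 10 secondary granule genes were at 0, and 0 of the 6 late granule and secretory vesicle genes. The cell type that the reads of Mmp8 and Slpi came from was not tested.

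The comparison of CM with control asks how conditioned medium changed these transcripts. With all 9 libraries, edgeR's quasi-likelihood test called 0 of the 10 members, against 5.61% of all genes tested. All 10 had a lower estimate in CM, with a median log2 fold change of -1.26 against -0.01 over all genes. At an unadjusted p under 0.05 there was 1, Camp, against 21.4% of all genes, and DESeq2 and limma-voom each called 0, against 12.6% and 5.67% of all genes. Camp had a log2 fold change of -3.22 (SE 1.25, adjusted p = 0.176) and was the 1 member whose groups did not overlap, against 18.4% of genes lower without overlap. Ngp had -1.37 (SE 1.40, adjusted p = 0.626), S100a8 -1.28 (SE 1.03, adjusted p = 0.522) and Elane -0.27 (SE 1.23, adjusted p = 0.931). The median SE of the members was 1.18, against 0.33 over all genes.

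In libraries 2 and 3 only, Camp fell and Elane rose in CM, and the other 8 members were not called. That is 2 of 10 against 18.3% of all genes, or 1 higher against 9.8% and 1 lower against 8.53%. At an unadjusted p under 0.05 there were the same number, 2, against 31.9% of genes. The libraries did not overlap for 1 member higher (Elane, against 31.2% of genes) and 1 lower (Camp, against 31.9%). Camp had a log2 fold change of -1.60 (SE 0.29, 95% interval -2.29 to -0.90, edgeR adjusted p = 0.0114), and Elane one of 1.33 (SE 0.37, adjusted p = 0.0490). The median member stood at -0.04, with 5 higher and 5 lower, so the lower estimates of all 10 with 9 libraries were not seen in these 6. Ltf had 0.0024 (95% interval -0.63 to 0.63) and Ngp -0.16 (95% interval -0.61 to 0.29).

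Setting CM plus DTM against CM asks how DTM changed the response to the medium. With all 9 libraries edgeR called 0 of the 10 members, against 0% of all genes tested. All 10 were higher in estimate in CM plus DTM, with a median log2 fold change of 2.03 against -0.03 over all genes. At an unadjusted p under 0.05 there were 3 (Camp, S100a8 and Lcn2), against 28.3% of all genes, limma-voom called 0, and DESeq2 called 1, Lcn2 at 2.25 (adjusted p = 0.0440), against 18.2% of all genes. Camp had 3.87 (SE 1.28, adjusted p = 0.0956) and S100a8 2.44 (SE 1.07, adjusted p = 0.171). The groups did not overlap for 8 of 10 members, all but S100a9 and Retnlg, against 16.7% of genes higher without overlap, and CM 1 was the lowest value for each.

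Without the number 1 libraries the same direction remained at a smaller size. In libraries 2 and 3, all 10 members were higher in CM plus DTM than in CM, with a median log2 fold change of 0.82 against -0.02 over all genes. Ngp rose by 0.71 (SE 0.19, edgeR adjusted p = 0.0462) and Camp by 2.25 (SE 0.30, adjusted p = 0.00941), which is 2 of 10 called against 17.5% of genes in either direction and 8.48% higher. At an unadjusted p under 0.05 there were 6, against 36.3% of genes. With 10 members, a count of 2 called is near that background. Values did not overlap for 8 members, against 31.5% of genes higher without overlap with 2 libraries per group.

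**Figure D3:**
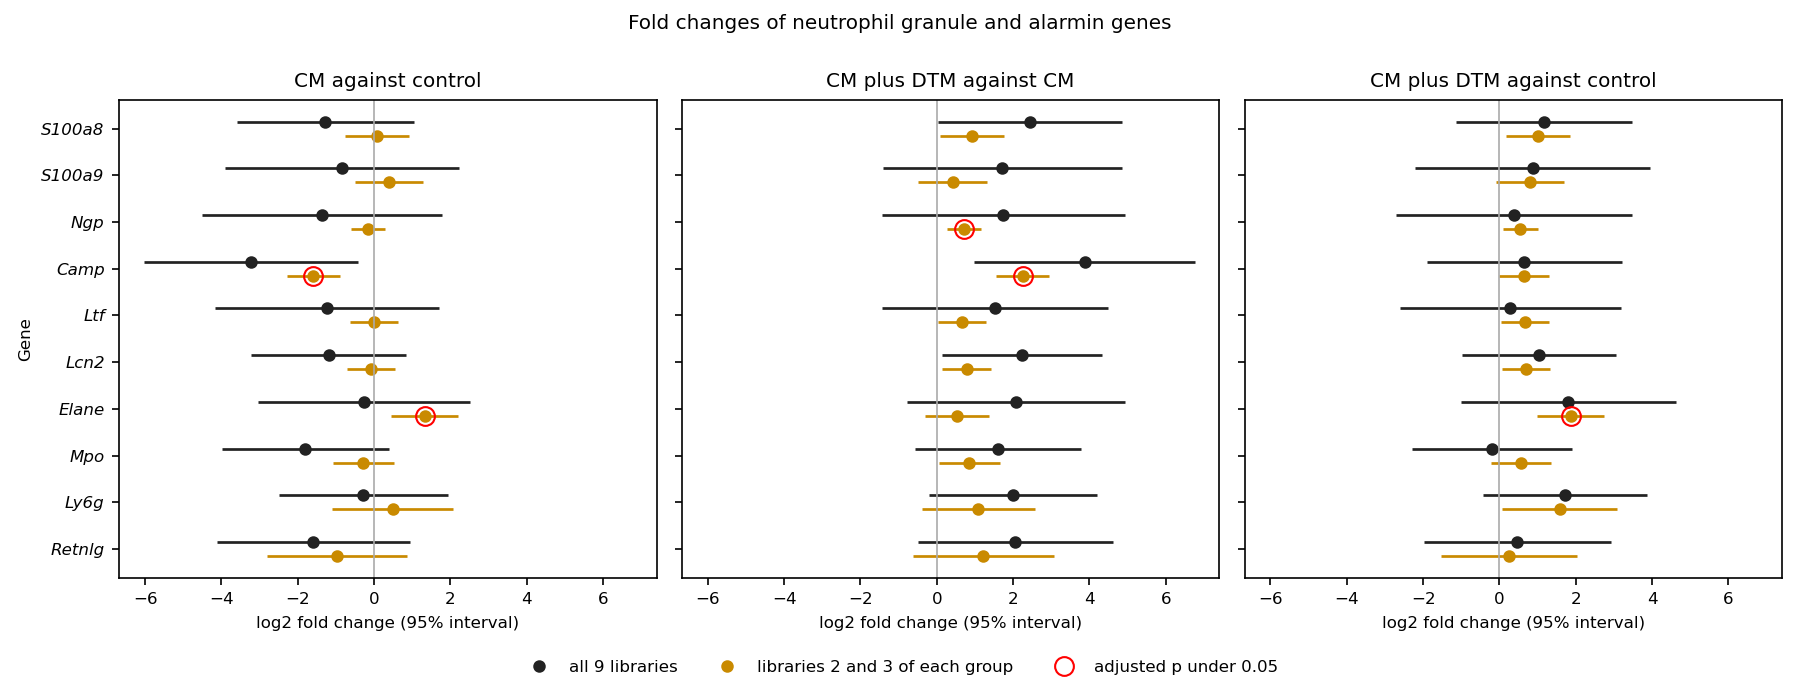
Log2 fold change of each gene in the 3 comparisons with its 95% interval, for all 9 libraries and for libraries 2 and 3 only. With all 9 libraries most intervals cross 0 and none passes the adjusted threshold; with libraries 2 and 3, Camp moves by -1.60 in CM and by 2.25 in CM plus DTM against CM.

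The third comparison, CM plus DTM against control, uses libraries that the others use too. With all 9 libraries edgeR called 0 of 10 members, against 2.45% of all genes, 0 had an unadjusted p under 0.05, against 24.4% of genes, and DESeq2 and limma-voom called 0, against 12.9% and 2.33% of genes. There were 9 higher and 1 lower, Mpo at -0.20 (SE 0.93), with a median of 0.76 against 0.01 over all genes. Elane had 1.80 (SE 1.25, adjusted p = 0.409). Ly6g alone did not overlap, at 1.71 (SE 0.95, adjusted p = 0.301), against 16.7% of genes higher without overlap. In libraries 2 and 3, all 10 were higher, with a median of 0.69, and 1 was called, Elane at 1.86 (SE 0.37, edgeR adjusted p = 0.0234), against 12.9% of genes in either direction and 6.75% higher. At an unadjusted p under 0.05 there were 6, against 31.8% of genes, and 8 did not overlap, against 29.9%.

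The size of these estimates depended on CM 1 and on the other number 1 libraries. Without that library alone edgeR called 0 members in each comparison, against 5.26%, 0% and 4.69% of all genes in the order above. The member medians were -0.69, 1.43 and 0.75 on the log2 scale, so the medians that involve CM moved toward 0 and the third stayed at its value. With libraries 2 and 3 only, which leaves out all number 1 libraries, the medians were -0.04, 0.82 and 0.69. Without CM 1 and CM plus DTM 1 together, Camp fell in CM against control (log2 fold change -2.59, edgeR adjusted p = 0.0415), which is 1 member against 16% of genes, and 0 members were called in the other comparisons, against 4.97% and 8.4% of genes.

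Ratios between members showed which genes kept step. These pairs were chosen after the values were seen, and the ranges cover counting error only in each library. Ltf made 22.0 to 30.6% of the summed counts of Ltf and Ngp in the 8 libraries with either gene, with no group apart. Camp made 5.27 to 10.6% of the counts of Camp and Ngp in control, 2.66 and 2.73% in CM 2 and CM 3, and 6.39 to 13.8% in CM plus DTM. Elane made 35 to 40.9% of the counts of Elane and Mpo in control, 65.2 and 67.3% in CM 2 and CM 3, and 60.0 to 81.1% in CM plus DTM. Camp relative to Ngp was thus lower in CM than in the other groups, and Elane relative to Mpo was lower in control than in both treated groups. CM 1 gave no ratio for Ltf or Camp with Ngp, since each stood at 0, and 0 of 2 counts for Elane with Mpo.

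**Figure D4:**
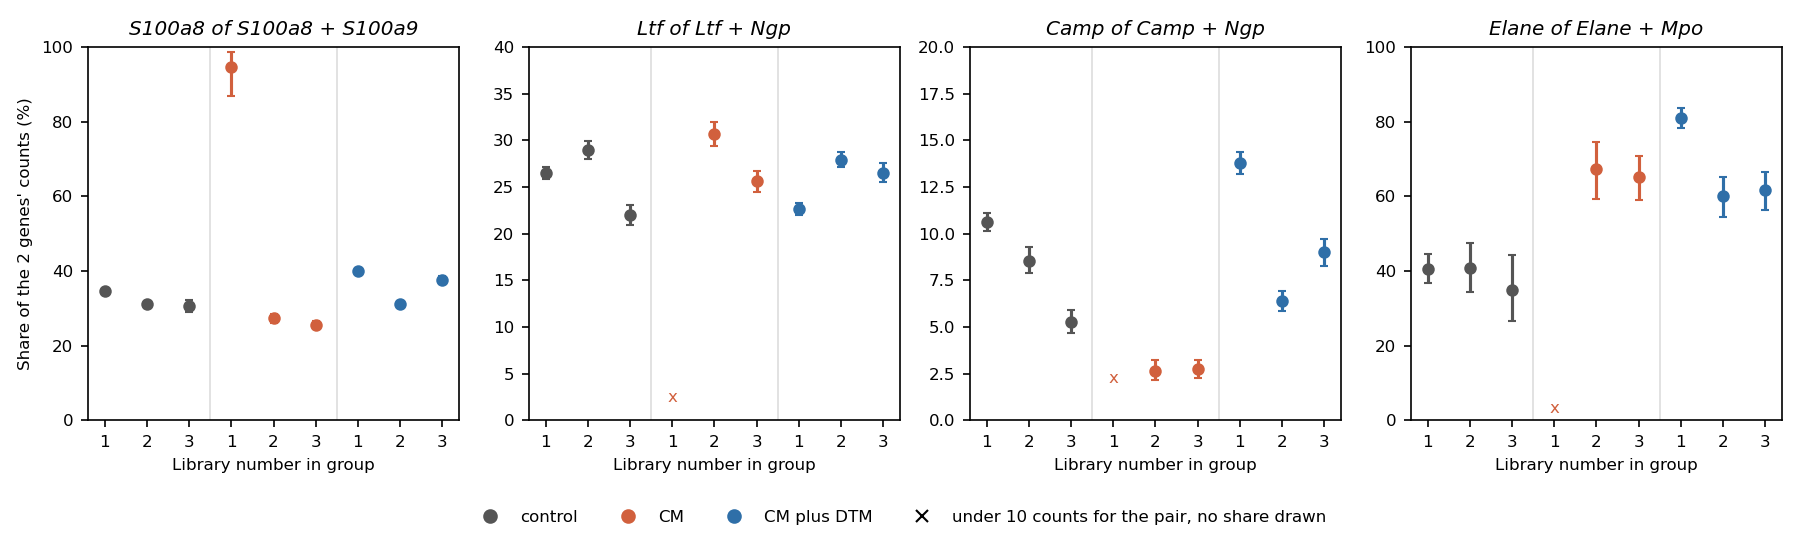
Share of one gene in the summed counts of a pair (percent), per library, with exact 95% binomial intervals. Elane makes 35 to 40.9% of Elane plus Mpo in control and 60.0 to 81.1% in the treated libraries that have counts, apart from CM 1 with 2 counts.

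The genes with the profile nearest to a member, by the root mean square (RMS) difference of centred log2 CPM over the 9 libraries, were other members, other neutrophil-associated genes and a few genes of other kinds. Of 12408 candidates with a mean of at least 1 CPM, Chil3, which encodes the chitinase-like protein Ym1, was nearest to Ltf (RMS 0.200), S100a9 (0.266) and Ngp (0.472). It stood at 105, 42.98 and 27.3 CPM in control, at 0, 43.6 and 40.1 CPM in CM, and at 136, 68.0 and 58.7 CPM in CM plus DTM, with the same gap at CM 1 as the 3 members. Pglyrp1, a granule peptidoglycan recognition protein, was nearest to Lcn2 (0.253) and S100a8 (0.294), and Fcnb, a ficolin of granulocytes, to Mpo (0.195). Fcnb was followed for Mpo by the immunoglobulin heavy chain Ighg2b (0.385) and by Itgb2l, a neutrophil integrin gene (0.447). Behind Pglyrp1, Lcn2 and S100a8 were nearest to each other (0.343), and the third for Lcn2 was Id1 (0.540), an inhibitor of helix-loop-helix transcription factors. S100a9 and Ngp, after Chil3, were nearest to Ltf (0.349 and 0.507) and then to each other (0.651). A predicted gene was the nearest to Elane, followed by the immunoglobulin light chain Igkc (0.481) and S100a8 (0.560). Retnlg was nearest to Itgb2l (0.601), then to the same predicted gene and to Chil1 (0.674). Camp was nearest to S100a8 (1.04) and Fcnb (1.07), the largest distance to a nearest gene of any member searched. The predicted gene came after these for S100a8 and Camp, and Ly6g, with a mean below 1 CPM, was not searched. Some distances depended strongly on CM 1. Between S100a8 and S100a9 the distance was 1.49 over the 9 libraries and 0.305 without CM 1. For Lcn2 and S100a9 it was 1.72 and 0.279, while for S100a9 and Ltf it was 0.349 and 0.366. The order of nearest genes thus holds for the 9 libraries, and a search without CM 1 is not given.

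**Figure D5:**
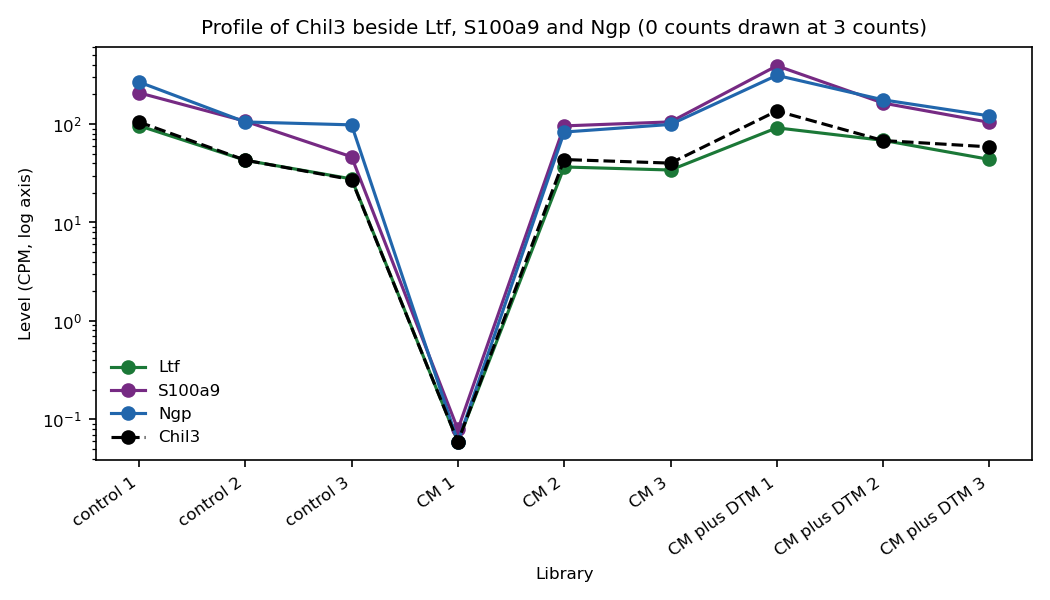
Level of Chil3, Ltf, S100a9 and Ngp in the 9 libraries (CPM, log axis), with 0 counts drawn at 3 counts. The 4 lines fall together at CM 1 and are highest in control 1 and CM plus DTM 1 within their groups.

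Among other granulocyte genes, taken from lists chosen with earlier results known, few passed the test with all 9 libraries. Mmp8 rose in CM against control by 3.74 (SE 0.39, edgeR adjusted p = 0.00173) and in CM plus DTM against control by 1.94 (SE 0.37, adjusted p = 0.0323), and was the 1 of 10 secondary granule genes called, against 5.61% and 2.45% of all genes. Its levels were 27.1, 51.9 and 56.8 CPM in control, 355, 780.4 and 676 CPM in CM, and 221, 158 and 142 CPM in CM plus DTM, so all 3 CM libraries, CM 1 among them, lay above the other 6. In CM plus DTM against CM, edgeR and limma-voom called 0 secondary granule genes, 4 of 10 had an unadjusted p under 0.05, against 28.3% of all genes, and DESeq2 called 3, against 18.2%. The lists include the members that belong to them. The 6 primary granule genes, 6 late granule and secretory vesicle genes, 10 tested mature neutrophil genes and 6 granulocyte regulators gave 0 calls in every comparison with edgeR and all 9 libraries, against 5.61%, 0% and 2.45% of all genes in the order of the comparisons. At an unadjusted p under 0.05 each of these lists gave 0 to 2 genes per comparison, against 21.4%, 28.3% and 24.4% of genes, while DESeq2 called 0 or 1 and limma-voom 0. Among the regulators, Cebpa, a factor of myeloid precursors, stood at 265, 149 and 161 CPM in control, 6.68, 129.9 and 121 CPM in CM, and 100.3, 165 and 153 CPM in CM plus DTM, so CM 1 was again the lowest. Not all regulators were low in that library. Cebpd stood at 29.9, 16.2 and 19.4 CPM in CM 1, 2 and 3. Csf3r, named after its values were seen, stood at 21.9, 9.39 and 11.2 CPM in the same libraries.

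In libraries 2 and 3 more of these genes were called, beside backgrounds of 18.3%, 17.5% and 12.9% of all genes in the order of the comparisons. Prtn3, which encodes the primary granule protease proteinase 3, rose by 1.14 in CM (edgeR adjusted p = 0.0465) and by 1.85 in CM plus DTM (adjusted p = 0.0155) against control, where Elane rose too. Of 6 late granule and secretory vesicle genes, 3 rose in CM against control: the formyl peptide receptor genes Fpr2 by 2.07 (adjusted p = 0.00124) and Fpr1 by 1.51 (adjusted p = 0.000729), and Slpi by 1.60 (adjusted p = 0.0112). In CM plus DTM against CM, 3 of the 6 fell: Fpr2 (log2 fold change -1.17, adjusted p = 0.0196), Fpr1 (log2 fold change -1.16, adjusted p = 0.00843) and Adam8 (log2 fold change -0.49, adjusted p = 0.0421). These calls were opposite in direction to those of Camp in the same libraries.

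Of 11 mature neutrophil genes tested in libraries 2 and 3, 3 rose in CM against control: Il1r2, a decoy receptor for interleukin-1, by 3.25 (adjusted p = 0.00716), Wfdc21 by 1.34 (adjusted p = 0.0329), and Stfa3, which had 0 counts in all but CM 2 and CM 3 and stayed below 1 CPM there. Il1r2 and Wfdc21 also rose in CM plus DTM against control, by 3.25 (adjusted p = 0.0145) and 1.32 (adjusted p = 0.0453). Among the 6 regulators Cebpd fell in CM against control (log2 fold change -0.68, adjusted p = 0.0324) and rose in CM plus DTM against CM by 0.84 (adjusted p = 0.0234). Of the secondary granule genes that are not members, Mmp8 fell in CM plus DTM against CM (log2 fold change -2.28, adjusted p = 0.000798), Pglyrp1 rose there by 1.35 (adjusted p = 0.0408), and Chil3 rose in CM plus DTM against control by 0.85 (adjusted p = 0.0481), all with edgeR.

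Among inhibitors and receptors of the encoded proteins, 1 of 9 was called with all 9 libraries, against 2.45% of genes: Lrp1, a receptor that takes up lactoferrin, fell in CM plus DTM against control (log2 fold change -1.47, SE 0.28, edgeR adjusted p = 0.0324). Of 7 other S100 genes tested, S100a10 and S100a11 rose in that comparison, by 1.55 (SE 0.21, adjusted p = 0.0132) and 1.25 (SE 0.22, adjusted p = 0.0250). Lrp1, S100a10 and S100a11 were also called there, in the same direction, with libraries 2 and 3.

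Lists for other cell types gave few calls with all 9 libraries. Of the 16 macrophage rows, 3 rose in CM against control, against 5.61% of genes, namely Fcgr1 by 1.84 (adjusted p = 0.0485), Mrc1 by 1.36 (adjusted p = 0.0385) and Mertk by 0.78 (adjusted p = 0.0485), with edgeR. With libraries 2 and 3 Mertk was not called (0.55, edgeR adjusted p = 0.0571). In those libraries 6 of the 16 macrophage rows were called higher and 3 lower, against 9.8% and 8.53% of all genes. With adjusted p-values of 0.0346 or less, 1 gene each was called against control from the dendritic cell list (Itgax, up by 1.59 in CM), the mast cell and basophil list (Mcpt8, up by 3.63 in CM), the eosinophil list (Siglecf, up by 2.08 in CM) and the B cell list (Ighm, down, log2 fold change -2.08 in CM). The call of Mcpt8 was lost with limma-voom, and all 4 were called with libraries 2 and 3. Mcpt8 stood at 1.32, 2.22 and 1.47 CPM in control and at 2.13, 29.1 and 31.1 CPM in CM, so CM 1 lay within the control range. The early progenitor, erythroid, megakaryocyte, T and NK cell and mesenchymal lists gave 0 calls with edgeR and limma-voom and all 9 libraries, 0 to 2 genes at an unadjusted p under 0.05, and 0 or 1 with DESeq2. Over all genes edgeR called 5.61%, 0% and 2.45% in the order of the comparisons, and 21.4%, 28.3% and 24.4% had an unadjusted p under 0.05. In libraries 2 and 3, edgeR called 7 of 11 mesenchymal genes in CM against control, 3 higher and 4 lower, against 18.3% of all genes. It also called 2 of 4 megakaryocyte genes there, as higher, and 1 of 6 early progenitor genes, as lower. Of the marker lists, 7 of 9 T and NK cell genes, 8 of 9 erythroid genes and 6 of 9 B cell genes had at most 12 counts in every library. So did 6 of 8 mast cell and basophil genes, 5 of 8 dendritic cell genes and 5 of 9 eosinophil genes. The calls from these lists thus rest on single genes, with 2 rows tested for dendritic cells, 2 for mast cells and basophils and 3 for eosinophils. The part of other cell types in the member levels was not tested.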

How the data were processed

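RNA was isolated with TRIzol from BMMs and sequenced on a DNBSEQ-T7 after mRNA library preparation, per the labels' protocols. The table the authors deposited holds raw counts of reads, 1 row per gene, with 9 columns of libraries. Per the submitters' processing notes, the tools were HISAT2 2.1.0, Trimmomatic 0.36, DESeq2 1.12.4 and FastQC 0.11.2; the builds named, mm39 and GRCh38, carry no role. No source used here names the counter, its annotation or its strand setting, which leaves overlapping, antisense and near-identical genes uncertain. A symbol occurred more than once on 183 rows, which were not merged.

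Genes were filtered with edgeR's filterByExpr, scaled by TMM and tested with the quasi-likelihood functions glmQLFit and glmQLFTest (edgeR 4.0.16, R 4.3.3). A single model by group held all 9 libraries, p-values were adjusted by Benjamini-Hochberg across the tested genes, and the threshold was 0.05. DESeq2 1.42.0 and limma-voom (limma 3.58.1) were alternatives, besides other filters and scalings, a replicate block and leaving out libraries. The SE is the size of the log2 fold change divided by the square root of F. Profiles and SDs used log2 CPM with a prior count of 2. Transcript lengths came from GENCODE vM21, and promoters from RefSeq on GRCm38.p6. Intervals of shares and the floor of 3 counts cover counting error only.

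The members and lists were chosen with earlier results of these data known. Named are the 10 members, from each other list up to 4 called genes of at least 1 CPM, largest change first, or up to 2 of the most abundant where none was called, and per member the 3 genes of nearest profile. Genes outside this rule are said to be chosen after their values were seen. The result of 1 list is not reported here.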

Additional observations from a re-analysis of the deposited data

How the results depend on the processing

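Over 20 alternatives per comparison, the members gave 600 values, of which 571 kept direction and side of the threshold, 23 reversed and 7 passed the threshold where they had not, 1 of them (Elane) among the reversed. In CM against control, 0 members were called, but 1 without the first CM and first CM plus DTM libraries together (Camp) and 2 with libraries 2 and 3. In CM plus DTM against CM, the count was 1 with DESeq2 and 2 with libraries 2 and 3, and in CM plus DTM against control it was 1 with libraries 2 and 3. Over all genes the calls ran from 256 to 2832 against 865, from 0 to 2810 against 0, and from 15 to 1985 against 378. The cause was not tested.

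In CM against control, Elane reversed to 0.25 with a replicate block, 0.36 without the first CM and first CM plus DTM libraries and 1.33 with libraries 2 and 3. It reversed to 0.27 with a term that marks the libraries numbered 1, those with Xist reads, and holds no Xist level. Ly6g reversed to 0.34 without those libraries and to 0.49 with libraries 2 and 3, where S100a8 stood at 0.069, S100a9 at 0.39 and Ltf at 0.0024. In CM plus DTM against control, Ngp, Camp and Ltf reversed to -0.093, -0.40 and -0.0039 without those libraries, and Mpo to 0.10 with limma-voom and 0.57 with libraries 2 and 3. Leaving out 1 library at a time, in CM against control Elane ran from -1.04 to 0.74 and Ly6g from -0.89 to 0.31, and in CM plus DTM against control Ngp ran from -0.093 to 0.99, Camp from -0.40 to 1.68, Ltf from -0.041 to 0.94 and Mpo from -0.58 to 0.73.

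Same-numbered libraries correlated in their deviations at -0.04 to 0.30, below the 0.1 limit in each comparison for at least 1 pair, so the numbers were not treated as pairs. In CM plus DTM against CM the values were 0.127, 0.142 and 0.0965, the last just below that limit. Whether same-numbered libraries share an origin was not tested. As a hint from the data, 2, 6 and 3 of the 6 libraries correlated best with their own number, in the order of the comparisons above. With the replicate block, 0 members were called in each comparison, and over all genes 675, 0 and 149. Ly6g, with at most 51 counts, is the member that depth limits most.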

Other observations

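Values of other genes in the number 1 libraries, given without a comparison and chosen after they were seen, were as follows. Vwf, an endothelial and megakaryocyte gene, had 119 CPM in CM 1 against 5.75 to 19.2 CPM in the other 8 libraries. Pf4, platelet factor 4, had 12816 CPM in CM plus DTM 1 against 285 to 2816 CPM elsewhere. A list of 13 mesenchymal genes summed to 199.9 CPM in CM 1, 1173 CPM in CM 2 and 1308 CPM in CM 3, and to 1561 to 1841 CPM in the other 6 libraries.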
